A study of Rattus norvegicus with 8 samples.

Results

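Vip, Gal, Npy, Adcyap1 and Cck encode neuropeptides, and Cckbr encodes a receptor for one of them. They were read by 9 probes, which are all the non-control probes whose RefSeq accession belongs to one of these 6 genes, out of 30367 probes and 15154 named genes on the array. Gal, Npy and Cckbr had 2 probes each and Vip, Adcyap1 and Cck had 1 each, and all 9 passed the filter on dim probes. The genes were picked because values of these same arrays had shown some of them to differ with the double mutant P61S/R100E. Their differences between P61S/R100E and the other groups are therefore given below as a description, with no test.

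Neuropeptides are cut from larger precursors in sensory neurons, stored in dense-core vesicles and released to act on G protein-coupled receptors. Vasoactive intestinal peptide (Vip) and PACAP (Adcyap1) belong to the secretin family and raise cyclic AMP, galanin (Gal) and neuropeptide Y (Npy) mostly act on inhibitory receptors, and cholecystokinin (Cck) acts on the receptors encoded by Cckar and Cckbr. Rat dorsal root ganglia are known for raising Vip, Gal, Npy, Adcyap1 and Cckbr after a peripheral nerve has been cut, when substance P falls. No array compared injured with intact ganglia, so the name injury-induced is background here and was not tested.

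The arrays measured RNA from cultures of dissociated dorsal root ganglia of Wistar rats aged 0 to 5 days, with cells of males and females pooled. After 2 to 3 days in serum-free medium with fluorodeoxyuridine and uridine, which act against dividing cells, a human protein was added to every culture and left for 5 days, at a concentration of 100 ng/ml. It was added as wild type (n = 2 arrays), as the single mutant P61S (n = 3) or as the double mutant P61S/R100E (n = 3). Cultures that received none of the 3 forms were not analysed here. The labels do not say whether the replicates are separate cultures or litters, so the spread between them may be technical, and in whole cultures a change in the number of expressing cells cannot be told apart from a change in RNA per cell.

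By the names of the deposited scanner files all 8 arrays lay on 1 slide, with 78.7% to 88.8% of spots well above background and 0 saturated spots. Their 75th percentile signals, to which values below are scaled, ran from 3267 to 5269. Wild type replicate 2 stood apart from the others on the first principal component (69.1, against -29.8 to 24.7). Slide positions were read from the digits that end those names, and no label states them. By those digits, the 3 P61S arrays lay in slide columns 1, 2 and 1, the 3 P61S/R100E arrays in columns 3, 2 and 3, and both wild type arrays in column 4. Column and protein therefore cannot be told apart in comparisons with wild type, and only replicate 2 of P61S and replicate 2 of P61S/R100E shared a column.

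Markers of sensory neurons were present as the label says. The 6 measured markers, Isl1, Avil, Prph, Scn10a, Scn9a and Drgx, were above background on all 8 arrays. Their summed signal relative to the 75th percentile ran from 61.9 to 68.9 with P61S/R100E, from 66.3 to 70.2 with P61S and from 63.1 to 81.1 with wild type. Sympathetic neurons also make Vip, galanin and neuropeptide Y. Among the 7 measured markers of those neurons, 3 were above background on all arrays (Th, Slc6a2 and Ddc), while Dbh, Phox2a and Gata3 were above it on 1 array each and Hand2 on 2. The summed signal of these markers ran from 0.514 to 0.601 with P61S/R100E, from 0.562 to 0.647 with P61S and from 0.518 to 0.701 with wild type. The brightest gene weighs most in each sum, Prph among the sensory markers and Th among the sympathetic ones. Against P61S, Th differed by -0.18, Slc6a2 by 0.38 and Ddc by 0.02, so the sum does not stand for each marker.

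Of the 6 genes, 5 matched the RefSeq promoter table (build GRCr8), and Cck did not. The 250 bases before the annotated start are shown for the 3 genes that were highest with P61S/R100E (Vip, Gal and Cckbr) and for Npy, which was not, so that they can be compared. They lie at chr1:44470230-44470479 (Vip, plus strand), chr1:210084573-210084822 (Gal, minus strand), chr1:169183328-169183577 (Cckbr, plus strand) and chr4:80211861-80212110 (Npy, plus strand). Capitals mark the letters TGACG, the core of the cyclic AMP response element, searched on both strands (as TGACG or CGTCA).
Vip: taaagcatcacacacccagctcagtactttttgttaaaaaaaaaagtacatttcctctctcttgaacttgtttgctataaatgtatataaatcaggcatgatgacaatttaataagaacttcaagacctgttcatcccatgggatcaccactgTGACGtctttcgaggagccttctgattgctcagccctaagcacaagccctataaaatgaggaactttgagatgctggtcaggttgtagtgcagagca
Gal: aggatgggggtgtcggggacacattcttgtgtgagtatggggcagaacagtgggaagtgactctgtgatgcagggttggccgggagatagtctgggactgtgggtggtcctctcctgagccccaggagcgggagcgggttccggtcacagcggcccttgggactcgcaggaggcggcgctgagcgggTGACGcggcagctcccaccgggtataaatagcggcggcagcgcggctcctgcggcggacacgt
Cckbr: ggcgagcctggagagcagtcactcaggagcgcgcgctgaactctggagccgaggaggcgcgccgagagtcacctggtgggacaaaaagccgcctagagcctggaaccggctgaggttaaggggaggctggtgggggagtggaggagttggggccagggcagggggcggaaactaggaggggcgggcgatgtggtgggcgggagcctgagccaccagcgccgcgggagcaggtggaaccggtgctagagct
Npy: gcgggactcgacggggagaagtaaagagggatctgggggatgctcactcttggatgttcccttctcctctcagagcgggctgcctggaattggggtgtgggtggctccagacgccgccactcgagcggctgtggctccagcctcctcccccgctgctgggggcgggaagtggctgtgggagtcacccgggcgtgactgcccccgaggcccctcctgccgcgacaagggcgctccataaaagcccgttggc
This core occurred once in the Vip window, with its first base 97 bases before the start, and once in the Gal window, 63 bases before it. It was not found in the windows of Cckbr, Npy or Adcyap1. The windows rest on annotated starts, which were not checked here, so absence from a window does not mean absence from the promoter. Among 33469 promoter windows of the same length, 18.2% held the core. The full element TGACGTCA, which contains the core (1.59% of windows), and the AP-1 motif TGANTCA (6.34%), both of which read the same on either strand, were found in none of the 5 windows. A match is a description of these letters and not a measured binding site.

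Vip gave the largest difference of the group. Its log2 signal, relative to the 75th percentile of the array, was 1.46, 1.54 and 1.32 in P61S/R100E replicates 1 to 3. It was -0.38, 0.10 and -0.45 in the P61S replicates and -0.31 and -0.24 in the wild type replicates. All 3 P61S/R100E arrays were thus above all 5 other arrays, with a gap of 1.22 to the nearest P61S array and of 1.56 to the nearest wild type array, while P61S and wild type overlapped. The mean was 1.44 ± 0.11 with P61S/R100E, -0.24 ± 0.30 with P61S (SD, n = 3 each) and -0.28 ± 0.05 with wild type (SD, n = 2).

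Expressed as folds, Vip was 3.21-fold higher than with P61S (log2 difference 1.68, SE 0.157, 95% bounds 1.31 and 2.06) and 3.29-fold higher than with wild type (1.72, SE 0.176, 95% bounds 1.30 and 2.13). Among 24148 tested probes this difference ranked 11th from the top against P61S and 31st against wild type. Both comparisons use the same 3 P61S/R100E arrays, so they are not independent. The probe was read from 2 spots, whose mean signals ran from 2770 to 15300 over the arrays, and the SD between the spots of an array was at most 0.173 on the log2 scale.

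Galanin was also higher with P61S/R100E, by a smaller factor and on both of its probes. Probe A_42_P614175, printed 10 times on each array, read 4.76, 4.66 and 4.72 in the P61S/R100E replicates. It read 4.12, 4.52 and 4.12 with P61S and 4.24 and 3.99 with wild type. The second probe, A_64_P091940, read 4.04, 4.27 and 4.20 with P61S/R100E, 3.54, 3.93 and 3.58 with P61S, and 3.67 and 3.54 with wild type. On both probes every P61S/R100E array was above every other array, but P61S replicate 2 came within 0.14 and 0.11 of them.

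The difference from P61S was 0.46 (SE 0.137, 1.37-fold) on the first Gal probe and 0.49 (SE 0.13, 1.40-fold) on the second. Against wild type it was 0.60 (SE 0.153, 1.51-fold) and 0.56 (SE 0.145, 1.48-fold). Among 24148 tested probes these differences ranked 442nd and 390th from the top against P61S and 379th and 411th against wild type. Within the only slide column that held both mutants, replicate 2 of each, the difference was 0.14 and 0.34. With these positions, a fit with a linear trend over slide columns reduces to the same 2 arrays for this contrast. It is no second result and only adds an SE of 0.199 and 0.233. On the first probe the difference was then smaller than its SE.

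The repeated spots show how much of this spread lies within an array. Over the 10 spots of the first Gal probe the SD was 0.044 to 0.078 on the log2 scale, whereas the 3 P61S arrays had an SD of 0.23 and the 3 P61S/R100E arrays one of 0.05. For the Npy probe A_42_P771373, also printed 10 times, the SD within an array was 0.060 to 0.079 and that between P61S arrays 0.13. The 10 Gal spots of P61S replicate 2 all lay above those of the other P61S arrays. Before scaling, the mean signal of the first Gal probe was 90600, 91100 and 83600 in P61S replicates 1 to 3, and the 75th percentile signals of these arrays were 5176, 3946 and 4768. The raised value of replicate 2 thus came with the lowest 75th percentile of the P61S arrays, and the part of the scaling in it was not tested. On the second Gal probe the mean signals before scaling were 61400, 102000 and 82200 in P61S/R100E replicates 1 to 3. Replicate 1 there was below wild type replicate 1 (63900), and the 75th percentile signals of these 2 arrays were 3744 and 5025. Its place above all other arrays on that probe was seen only after scaling. On the first probe these 2 arrays read 102000 and 95300.

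**Figure D1:**
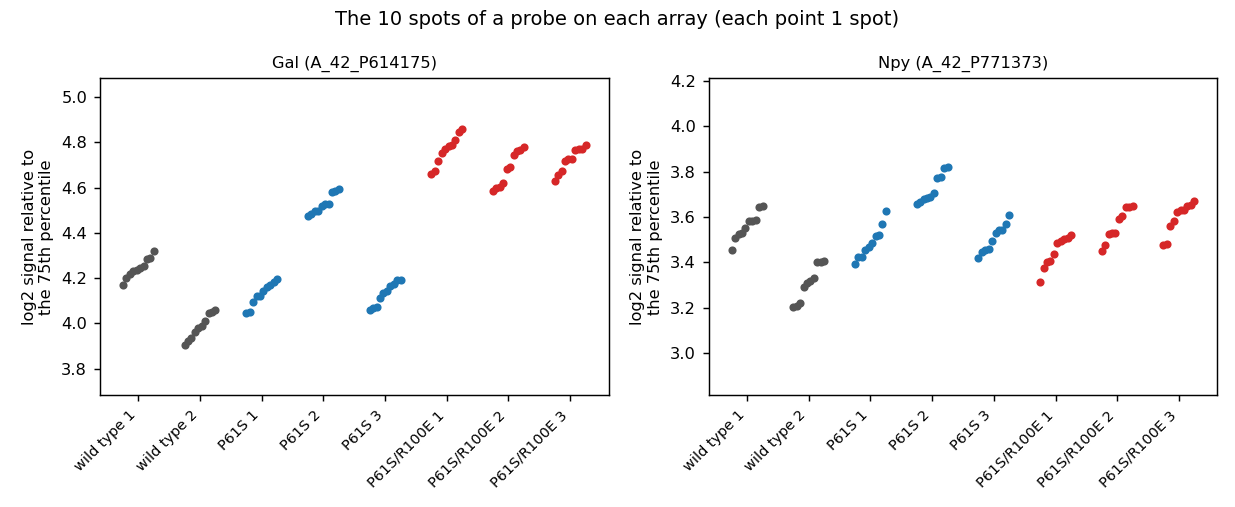
Log2 signal relative to the 75th percentile of the array (vertical axis) for the 10 spots of a Gal probe and the 10 spots of an Npy probe on each of the 8 arrays (horizontal axis), with spots ordered by value within an array. The Gal spots of P61S replicate 2 lie above those of the other P61S arrays and reach the lowest spots of a P61S/R100E array. In the Npy panel P61S replicate 2 is again the highest P61S array, and the groups overlap.

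Npy did not follow Vip and Gal. The 10-spot probe read 3.44, 3.55 and 3.60 with P61S/R100E, 3.48, 3.71 and 3.51 with P61S, and 3.56 and 3.31 with wild type. The second probe, A_64_P137042, ranged from 1.28 to 1.49 with P61S/R100E, from 1.46 to 1.60 with P61S and from 1.22 to 1.43 with wild type. P61S/R100E overlapped both other groups on both probes. Against P61S the difference was -0.04 (95% bounds -0.30 and 0.22) and -0.10 (-0.34 and 0.13), and against wild type 0.10 (-0.19 and 0.39) and 0.08 (-0.18 and 0.34). Without 1 of the wild type arrays the difference from wild type ran from -0.03 to 0.23 on the first probe and from -0.02 to 0.18 on the second. On the first probe the bounds against P61S run from 0.814-fold to 1.17-fold of its level.

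Adcyap1, the PACAP gene, was lower with P61S/R100E although it belongs to the same peptide family as Vip. Its log2 signal was 1.76, 1.95 and 1.93 with P61S/R100E, 2.22, 2.22 and 2.21 with P61S, and 2.17 and 2.06 with wild type. Every P61S/R100E array was below every other array, by 0.26 from the nearest P61S array and 0.11 from the nearest wild type array. The difference was -0.34 from P61S (SE 0.0846, 95% bounds -0.54 and -0.13), which is 1.26-fold lower, and -0.23 from wild type (SE 0.0946, 95% bounds -0.46 and -0.01). It was -0.27 within the shared slide column, -0.46 within slide row 1 and -0.27 within slide row 2. Of all tested probes, 7.35% had a lower difference from P61S than Adcyap1 did, and 26.0% had a lower one from wild type.

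Cck, the cholecystokinin precursor gene, had its lowest signals with P61S/R100E as well. They were -1.74, -1.84 and -1.72, against -1.60, -0.97 and -1.62 with P61S and -1.48 and -1.43 with wild type. The groups did not overlap, but the gap to the nearest P61S array was only 0.10, and the SD of 0.37 between P61S arrays came from replicate 2. The difference of -0.37 from P61S (SE 0.177, 95% bounds -0.79 and 0.05) became -0.16 without that array. With a linear trend over slide columns it was -0.86 from P61S (SE 0.22), which is the value of replicate 2 against replicate 2 alone. The difference from wild type (-0.31, SE 0.198) turned to 0.19 (SE 0.229), which extends the trend to a column that held only wild type. Without the trend, 6.21% of all tested probes had a lower difference from P61S than Cck did, and 19.3% had a lower one from wild type.

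Cckbr, the receptor that binds both cholecystokinin and gastrin, was higher with P61S/R100E on 1 of its 2 probes. Probe A_64_P101130 read -3.52, -3.10 and -3.41 with P61S/R100E, -4.42, -4.15 and -4.59 with P61S, and -4.40 and -4.44 with wild type. All P61S/R100E arrays were above the rest, by at least 0.63. The difference was 1.05 from P61S (SE 0.152, 95% bounds 0.68 and 1.41, 2.06-fold) and 1.08 from wild type (SE 0.17, 95% bounds 0.67 and 1.48, 2.11-fold), and it was 1.05 within the shared slide column. Among 24148 tested probes it ranked 68th from the top against P61S and 129th against wild type.

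The other Cckbr probe, A_64_P013932, was close to background. Its single spot had processed signals of 18.1 to 45.1, and it was well above background on 2 of 3 P61S arrays and on the other 5 arrays. It read -6.94, -6.87 and -7.33 with P61S/R100E, -7.40, -7.32 and -7.48 with P61S, and -8.12 and -6.90 with wild type, so the groups overlapped. Its difference of 0.35 from P61S had 95% bounds of -0.36 and 1.06, which include the value of the brighter probe. Against wild type it was 0.46, but -0.15 without wild type replicate 1 and 1.07 without wild type replicate 2.

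**Figure D2:**
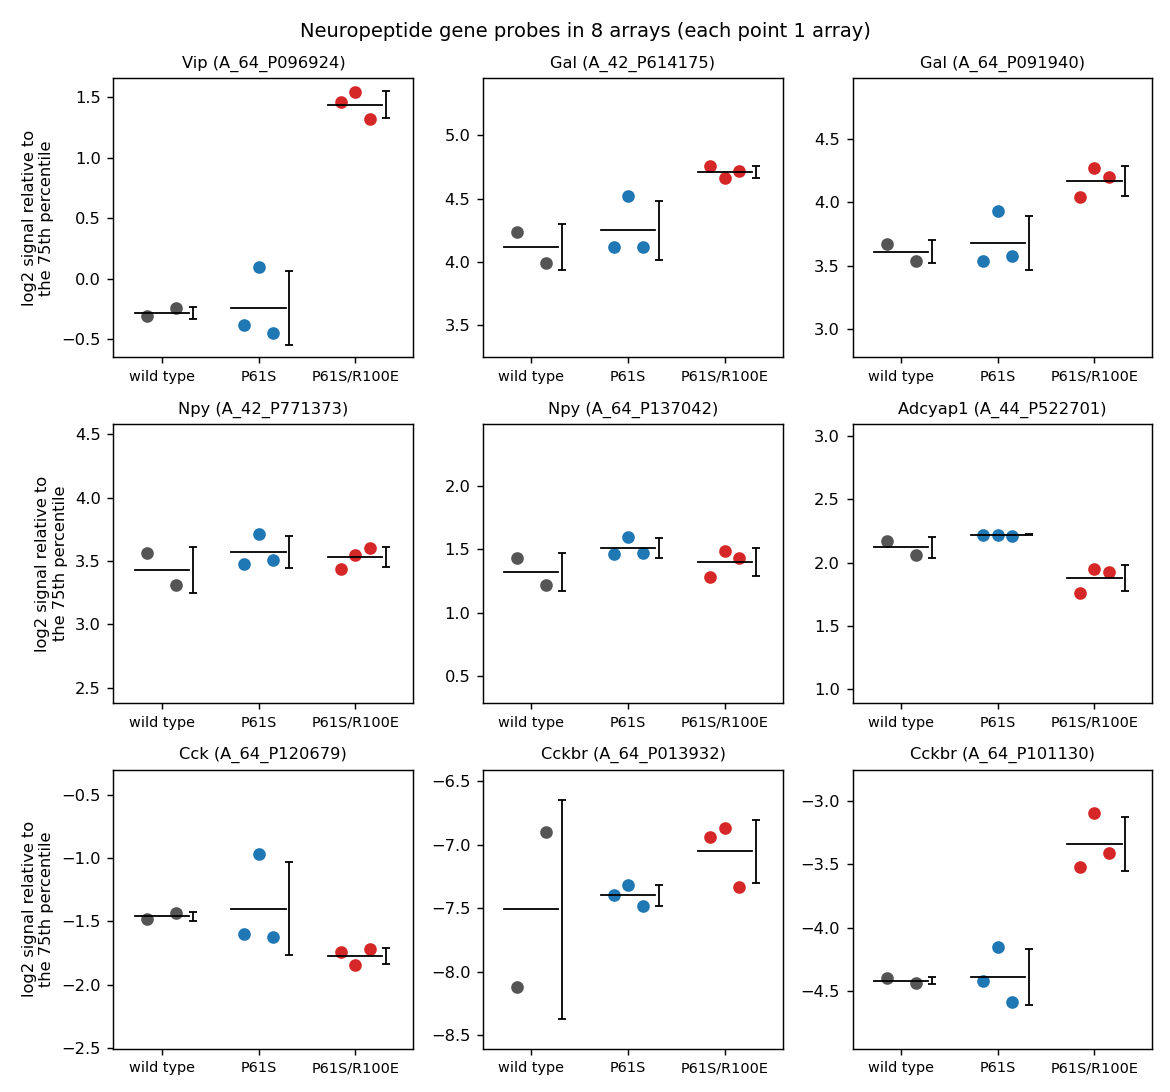
Log2 signal relative to the 75th percentile of the array (vertical axes, each panel on its own range) for the 9 probes in wild type (n = 2), P61S (n = 3) and P61S/R100E (n = 3) arrays. Points are arrays, lines are group means and bars are 1 SD. Vip, both Gal probes and the brighter Cckbr probe are highest in the P61S/R100E arrays, Adcyap1 and Cck are lowest there, and Npy overlaps between groups.

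Counted over the 9 probes, 4 had all P61S/R100E arrays above all P61S arrays, where 5.64% of 24148 tested probes did, and 2 had them all below, where 8.18% did. Against wild type the counts were again 4 and 2, where 5.8% and 9.3% of tested probes lay above and below. The members were chosen on these contrasts, so nothing is read from the counts. By limma with Benjamini-Hochberg adjustment over all probes, 0 of 24148 (0%) passed an adjusted p of 0.05 in either comparison. An unadjusted p under 0.05 was reached by 960 probes (3.98%) against P61S and by 1194 (4.94%) against wild type. The median difference over all tested probes was -0.03 and -0.06.

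P61S was compared with wild type for the effect of the P61S substitution alone. The genes were not chosen on this contrast itself. It is, however, the difference between the 2 contrasts known at the choice, so its tests are not independent of that choice. In none of the 9 probes did the difference pass, and limma called 0 of 24148 probes (0%), while 509 (2.11%) reached an unadjusted p of 0.05. Vip differed by 0.03 (95% bounds -0.38 and 0.45), Gal by 0.14 (-0.23 and 0.50) and 0.08 (-0.27 and 0.42), and the brighter Cckbr probe by 0.03 (-0.37 and 0.44). Cck differed by 0.06 (-0.41 and 0.53), and its bounds in folds were 0.752 and 1.44. In Adcyap1 (0.10, -0.12 and 0.33) and the second Npy probe (0.18, -0.08 and 0.45) the P61S arrays lay just above the wild type arrays, by 0.04 and 0.03. These are 2 of 9 probes, where 7.36% of all tested probes had P61S above wild type without overlap, and 0 of 9 lay below, where 9.15% did. The adjusted p from limma was 1 for each of the 9 probes. A linear trend over slide columns, extended to the column that held only wild type, gave larger differences for Vip (0.53, SE 0.47), the first Gal probe (0.78, SE 0.35), the second (0.36, SE 0.409) and Cck (1.05, SE 0.386), each again with a limma adjusted p of 1. For Vip, Cck and the first Gal probe these lie above the bounds just given.

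**Figure D3:**
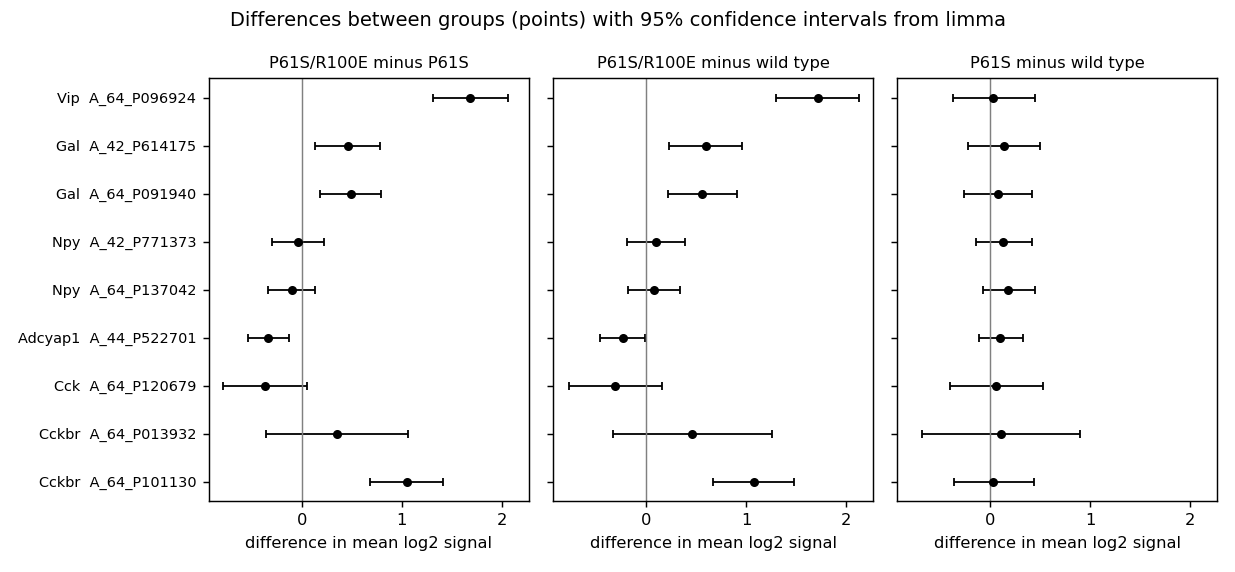
Difference in mean log2 signal (horizontal axes) for the 9 probes in the 3 comparisons, with 95% confidence intervals from the limma fit of all 8 arrays. For Vip the interval runs from 1.31 to 2.06 against P61S and from 1.30 to 2.13 against wild type. All intervals of P61S against wild type include 0. The intervals are not adjusted over probes. The genes were picked on the comparisons with P61S/R100E, so an interval there that leaves out 0 is a description and no test.

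P61S replicate 2 had the highest signal of the 3 P61S arrays in 9 of 9 probes, the Adcyap1 values differing by no more than 0.01. How often it was the highest over all tested probes is not given here, so the count is not read as particular to these genes. Gal, Npy and Cckbr enter it with 2 probes each. P61S replicate 2 is the P61S array that shared its slide column with a P61S/R100E array. Without it the difference of P61S/R100E from P61S was 1.86 for Vip, 0.59 and 0.61 for Gal, and 1.16 for the brighter Cckbr probe. Within slide row 1 these were 1.60, 0.44, 0.30 and 0.77, and within slide row 2 they were 1.88, 0.57, 0.66 and 1.34. Vip, both Gal probes and the brighter Cckbr probe kept their higher level against P61S in all 20 alternative settings and in each slide row. Adcyap1 and Cck kept their lower level there. Several of the 20 settings cannot move this difference, so the count of settings adds no support. These are the other filters, the replicate block, the fit of 2 groups, the trend and robust options, the looser threshold and leaving out a wild type array.

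**Figure D4:**
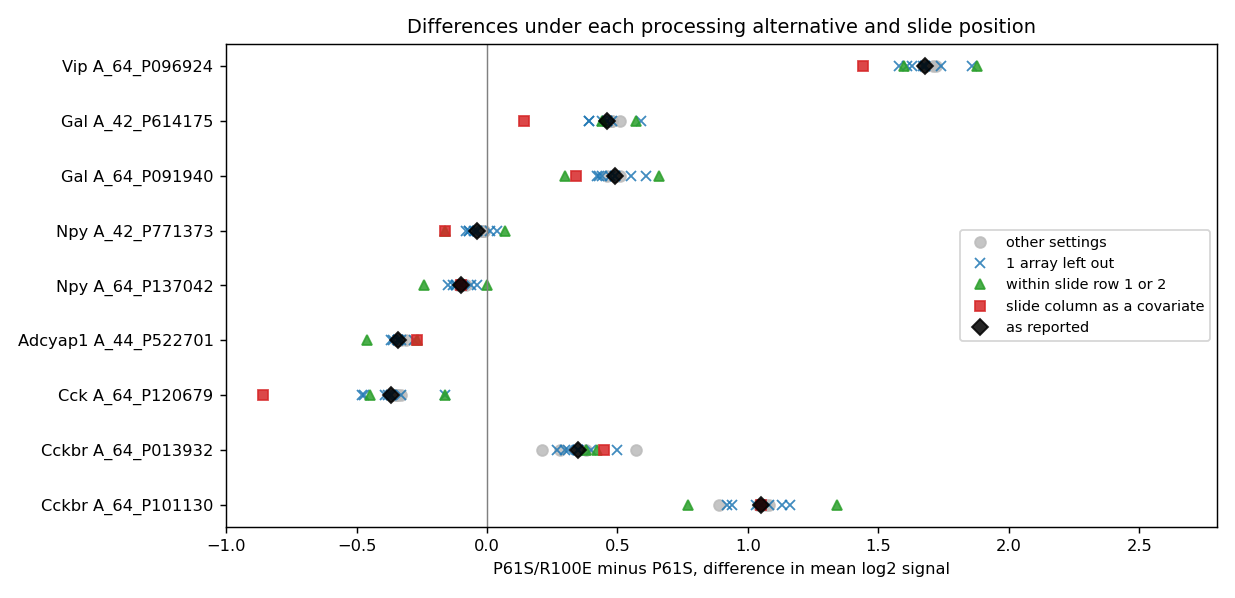
Difference in mean log2 signal between P61S/R100E and P61S (horizontal axis) for the 9 probes (vertical axis) as reported (diamonds), with 1 array left out (crosses), within a slide row (triangles), with a linear trend over slide columns (squares) and under the other settings (circles). The first Gal probe runs from 0.14 to 0.59 and Cck from -0.86 to -0.16, while Vip stays at 1.44 or above.

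The receptors on which these peptides act showed no call. Of 12 listed receptor genes 11 were on the array and 10 were tested, and 0 passed in any of the 3 comparisons by limma. Their median difference was 0.12 against P61S, beside -0.03 over all tested probes, and -0.07 against wild type, beside -0.06.

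Vipr2, which encodes a receptor for both Vip and PACAP, had the smallest unadjusted p of the list. It read -3.58, -3.25 and -3.06 with P61S/R100E, -3.75, -3.85 and -3.76 with P61S, and -3.87 and -3.88 with wild type. The P61S/R100E arrays were above all others, with a difference of 0.49 (SE 0.135) from P61S and of 0.58 (SE 0.151) from wild type. Neither passed in limma over all probes (adjusted p = 0.99 and 0.76). Vipr1, the other receptor shared by both peptides, differed by 0.09 and -0.26, with overlapping groups. Adcyap1r1, the receptor selective for PACAP, was above background on 5 of 8 arrays on its brightest of 3 probes and was not tested.

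The galanin receptor genes differed in sign. Galr1 read -5.36, -5.27 and -4.70 with P61S/R100E, above the P61S values of -5.45, -5.60 and -5.65. It differed by 0.46 (SE 0.209) from P61S and 0.21 (SE 0.234) from wild type, with overlap in the latter, and a second, dimmer probe by 0.49 and -0.10. Galr2 read -0.33, -0.13 and 0.01 with P61S/R100E and 0.14, 0.05 and 0.12 with P61S, a difference of -0.26 (SE 0.104) with no overlap. Against wild type it was -0.17 (SE 0.116). Galr3 was near background, with 6 of 8 arrays well above it, and differed by -0.55 (SE 0.497) and -0.10 (SE 0.556).

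Among neuropeptide Y receptor genes, Npy5r read -4.48, -4.29 and -4.37 with P61S/R100E against -4.79, -4.60 and -4.74 with P61S and -4.66 and -4.56 with wild type. That was 0.33 (SE 0.0919) and 0.23 (SE 0.103) higher with no overlap, and a second probe gave 0.29 and 0.03. In limma its adjusted p was 1 and 0.76. Npy1r, the main postsynaptic receptor of neuropeptide Y, differed by 0.15 and 0.10, and Npy2r by -0.28 and -0.28, with overlapping groups. A second Npy2r probe of almost the same mean signal differed by -0.64 and -0.20. Npy4r, a receptor that prefers pancreatic polypeptide, was above background on 7 of 8 arrays and differed by 0.17 and -0.03. Cckar, the receptor that prefers sulphated cholecystokinin, was well above background on 7 of 8 arrays and differed by -0.42 and -0.35, again with overlap.

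**Figure D5:**
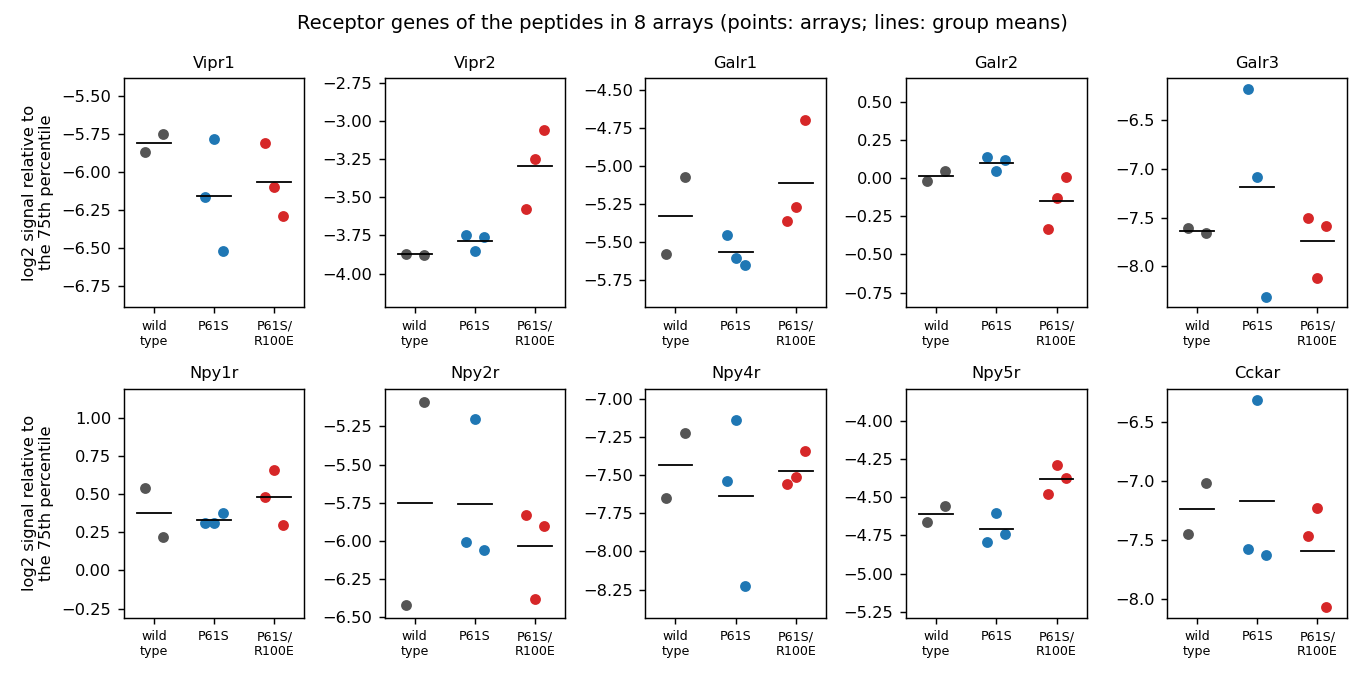
Log2 signal relative to the 75th percentile of the array (vertical axes, each panel on its own range) for the 10 tested receptor genes, with wild type (n = 2), P61S (n = 3) and P61S/R100E (n = 3) arrays as points and group means as lines. The P61S/R100E arrays lie above all others for Vipr2 and Npy5r, above the P61S arrays for Galr1 and below the P61S arrays for Galr2.

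Relatives of the peptides showed no call either. Of 9 genes of the secretin, galanin, neuropeptide Y and gastrin families 8 were on the array and 7 were tested, with 0 past the test in each comparison. Gip, an incretin hormone gene, differed by -0.15 from P61S and -0.24 from wild type, Pyy by -0.04 and 0.16, and Gast, the gastrin gene and the other ligand source of Cckbr, by -0.06 and -0.07. Between P61S and wild type the 3 smallest unadjusted p-values of the receptor and peptide list belonged to Vipr1 (-0.34), Pyy (0.20) and Glp1r (-0.34), all with a limma adjusted p of 1. Of 4 receptors of related peptides 3 were tested and 0 passed.

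Other genes that sensory neurons raise after axon injury were read from a list of 16, of which 14 were tested. By limma 0 passed over all probes in any comparison. The median difference was 0.07 from P61S and 0.11 from wild type, beside -0.03 and -0.06 over all tested probes. In their means 12 of 14 were above P61S and 9 of 14 above wild type. Without overlap, 1 lay above P61S and 2 below, where 5.64% and 8.18% of all tested probes did. Against wild type these were 6 and 1, where 5.8% and 9.3% did. For P61S against wild type they were 3 and 0, where 7.36% and 9.15% did. The list was written with earlier results of these data known, so nothing is read from these counts. P61S minus wild type gave a median of 0.13, beside -0.04 over all tested probes, with 10 of 14 higher. A higher median was thus not particular to P61S/R100E. The share of all tested probes with a higher mean is not given here. Atf3, the transcription factor most often used to mark injured neurons, read 3.69, 3.54 and 3.67 with P61S/R100E, 3.41, 3.40 and 3.45 with P61S, and 3.33 and 3.48 with wild type. It was higher without overlap, by 0.21 (SE 0.0831) and 0.23 (SE 0.0929), and its adjusted p in limma was 1 and 0.76. The transcription factor genes Jun, Sox11, Stat3 and Smad1 differed from P61S by 0.07, 0.01, 0.04 and 0.13.

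Other genes of that list were lower with P61S/R100E. Nts, the neurotensin gene, read -2.91, -2.73 and -3.08 with P61S/R100E, -2.00, -1.57 and -1.98 with P61S, and -2.12 and -2.01 with wild type. It was lower by a log2 difference of -1.05 (SE 0.149) and -0.84 (SE 0.167), with limma adjusted p of 0.25 and 0.62. Crh, which encodes corticotropin-releasing hormone, differed by -1.05 (SE 0.364) from P61S but was near background (7 of 8 arrays above it). Ecel1, an endopeptidase gene of injured neurons, in contrast differed by 0.25 and 0.38, Flrt3 by 0.13 and 0.29, and the growth cone gene Gap43 by 0.07 and 0.20, with 0 of these past the test. Between P61S and wild type the smallest unadjusted p-values of the injury list belonged to Flrt3 (0.17), Nts (0.21) and Gap43 (0.13), each with a limma adjusted p of 1.

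Over the 8 arrays and 12517 other genes, the patterns most like that of Vip by Pearson correlation were those of Pde6b, a rod phosphodiesterase subunit (r = 0.998), Crisp3, a cysteine-rich secretory protein (0.995), the annexin gene Anxa3 (0.99), the cytokine gene Il24 (0.99) and the cadherin-related gene Cdhr1 (0.988). For the brighter Cckbr probe they were Gprc5a, an orphan G protein-coupled receptor (0.995), Cmtm2a (0.992), Pde6b (0.991), Hpd (0.989) and the keratin gene Krt14 (0.988). For Gal they were the potassium channel subunit gene Kcng1, the calmodulin-binding Pcp4 and Plppr3 (0.978 each), followed by Cbln2 and Smim38 (0.961 each). These genes share the arrays and their group difference, so the correlations are a description with no test. Pde6b was the only gene in both the Vip and the Cckbr set.

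Markers of other cells were read beside these values, and their part in the differences was not tested. Against P61S the median difference was 0.04 for 9 pan-neuronal genes, -0.11 for 6 sensory neuron genes (0 of 6 higher), 0.15 for 7 fibroblast genes (7 of 7 higher), -0.01 for both 6 satellite glia and 7 Schwann cell genes, 0.00 for 8 macrophage genes and -0.17 for 6 endothelial and mural genes. Against wild type the fibroblast median was 0.08 (4 of 7 higher) and the sensory neuron median -0.06 (0 of 6 higher). Over all tested probes the median was -0.03 against P61S and -0.06 against wild type. P61S minus wild type gave -0.08 for fibroblast genes (1 of 7 higher) and 0.07 for sensory neuron genes (4 of 6), beside -0.04. These counts include differences of almost nothing, such as 0.00 for Dcn and 0.02 for Lum against P61S and 0.00 for Scn10a against wild type. Without overlap, 1 of 7 fibroblast genes lay above P61S and 2 of 6 sensory neuron genes below it. The share of all tested probes in each direction is not given beside these counts. The summed fibroblast signal ran from 132 to 163 with P61S/R100E, from 127 to 140 with P61S and was 140 on both wild type arrays. The summed pan-neuronal signal ran from 143 to 153, from 126 to 150 and from 139 to 146 in the same order, and the summed Schwann cell signal from 83.8 to 94.7, from 80.8 to 86.8 and from 85.6 to 85.8. For satellite glia it ran from 37.6 to 45.7, from 41.4 to 43.1 and from 39.2 to 46.7. Apoe was by far the brightest gene in that sum. The endothelial marker Tek was above background on none of the 8 arrays. By limma 0 marker genes passed over all probes in any of the 3 comparisons.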

How the data were processed

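Per the file headers, Feature Extraction 10.7.3.1 (protocol GE1_107_Sep09, array design 028279, annotation on rn4) made the deposited spot intensities, with background subtraction and spatial detrending. From these, log2 intensities minus the log2 75th percentile of the same array were computed. Spots of a probe were averaged, leaving out outlier spots unless all were outliers, and RefSeq accessions gave the gene names. Of 30367 probes, 24148 had at least 50% of their spots well above background throughout at least 1 group and were tested. The log2 table deposited by the authors (22018 probes, with no steps stated and without the dimmer Cckbr probe) served as an alternative. Its column medians ran from 9.82 to 10.3, and it was centred on the 75th percentile of each array.

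A single limma fit of 8 arrays with 3 group means gave all differences (limma 3.58.1 in R 4.3.3, 5 residual and 1.87 prior degrees of freedom), with Benjamini-Hochberg adjustment over all tested probes at 0.05. It was tested on simulated data. Tables were made with pandas 2.3.3 and numpy 2.4.6 under Python 3.11.15, and figures with matplotlib 3.10.9. The number of arrays limits the precision. Samples with an RNA integrity number under 8.0 had been discarded, per the labels.

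All probes of the 6 genes are named. From the receptor and peptide list and from the injury list, the 3 genes of smallest p per comparison and the receptors of the peptides are named, a gene being read by its brightest probe, and for Vip, Gal and Cckbr the 5 genes of highest correlation. Some injury and related peptide genes outside that rule (Jun, Sox11, Stat3, Smad1, Gast) were named after their values were seen. The genes and lists were chosen with earlier results of these data known.

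The alternatives were quantile normalization, with and without normexp (offset 50, on median spot signals because the files used here hold no mean signal), median centring over detected probes, the authors' table, testing every probe or only those above background throughout, a block for the replicate number or the slide row, a linear trend over slide columns, a fit of 2 groups at a time, limma's trend and robust options, an adjusted p under 0.10, and leaving out each array. Values within slide rows and columns were added after seeing the data. Some names in the labels are not reported here.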

Additional observations from a re-analysis of the deposited data

How the results depend on the processing

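Over 20 alternative settings the differences of Vip, both Gal probes, the brighter Cckbr probe, Adcyap1 and Cck from P61S kept their direction. Some of these settings change only the filter, the error or the threshold, or leave out a wild type array, and cannot move these differences. With a linear trend over slide columns, Cck against wild type turned from -0.31 to 0.19. Between P61S and wild type, where no probe passed, the same trend turned Adcyap1 to -0.02 and the dimmer Cckbr probe to -0.08, and moved Vip from 0.03 to 0.53, the first Gal probe from 0.14 to 0.78, the second from 0.08 to 0.36 and Cck from 0.06 to 1.05. With 1 array left out, P61S minus wild type ran from -0.14 to 0.14 for Vip, from -0.05 to 0.15 for the second Gal probe, from -0.15 to 0.17 for Cck, from -0.09 to 0.14 for the brighter Cckbr probe and from -0.50 to 0.72 for the dimmer one, which lies near background. The cause was not tested.

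The count of probes called by limma, 0 in each comparison, was 1 against P61S with the deposited values, with the filter on all arrays and at an adjusted p under 0.10, and 6 with limma's trend and robust options together. Against wild type it was 1 with either quantile setting, the deposited values, the filter on all arrays, the trend and robust options together and an adjusted p under 0.10. Between P61S and wild type it was 1 with either quantile setting. With 1 array left out the counts ran from 0 to 3 for P61S/R100E against P61S, from 0 to 1128 against wild type and from 0 to 246 for P61S against wild type. The counts of 1128 and 246 were those without wild type replicate 1, where that group is the 1 array that stood apart and is assumed to vary like the others. Without wild type replicate 2 they were 1 and 2, and without P61S replicate 2 they were 3, 2 and 1 in the order of the comparisons. The receptor and peptide list and the injury list had 0 calls in all settings.

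With the replicate number as a block limma called 0 probes in each comparison, and the difference from P61S was 1.68 (SE 0.123) for Vip and 0.46 (SE 0.158) for the first Gal probe. Arrays of P61S and P61S/R100E with the same number had correlations of -0.036 to 0.062 between their deviations from the group means, and those with wild type ran from 0.124 to 0.191 for P61S and from -0.195 to -0.142 for P61S/R100E. Same-numbered arrays thus did not deviate together throughout, and the numbers were not taken as pairs.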
